A study of Mus musculus with 116 samples.

Results

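Actin monomer binding and turnover was followed through 9 genes, chosen by name from the 40202 genes of the count files: Tmsb4x, Tmsb10, Pfn1, Pfn2, Cfl1, Cfl2, Dstn, Cap1 and Capg. The libraries came from the nanoSPLITS workflow, in which 1 or a few cells are lysed in a nanodroplet that is then divided so that one portion goes to RNA sequencing, and from 2 established mouse cell lines grown by standard culture with no treatment. C10 is labelled as alveolar type II epithelium and SVEC as endothelium. An input series consisted of 8 C10 libraries made from 1 cell, 6 made from 3 cells and 6 made from 10 cells, and a single-cell set of 48 libraries for each line. Of the single-cell libraries, 2 of C10 held fewer than 1000 counts and were left out, which left 46. Levels are counts scaled to a library total of 1000000 counts on genes (CPM).

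Actin filaments grow at one end and are dismantled at the other, and the genes described here act on the subunits, or monomers, that move between filament and pool. Thymosin β4 (Tmsb4x) and thymosin β10 (Tmsb10) are small peptides that hold monomers out of assembly. Profilins (Pfn1, Pfn2) bind monomers, promote exchange of their nucleotide and deliver them to growing ends. The cofilins (Cfl1, Cfl2) and destrin (Dstn) sever filaments and speed the loss of subunits, Cap1 encodes a cyclase-associated protein that helps cofilin and recharges monomers, and Capg encodes a gelsolin-family protein that caps filament ends.

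The coding sequences of the 2 thymosins are shown because these near relatives gave different results in the comparison of the cell lines below, where Tmsb4x had the largest ratio of the 9 genes and Tmsb10 a ratio near 1. They were taken from the GENCODE mouse transcripts, run 5′ to 3′ from the start codon to the stop codon, and have capitals at the positions where they differ.
Tmsb4x: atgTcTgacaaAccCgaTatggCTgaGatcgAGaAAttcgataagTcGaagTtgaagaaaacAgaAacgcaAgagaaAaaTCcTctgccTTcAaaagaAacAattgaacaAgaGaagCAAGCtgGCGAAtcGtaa
Tmsb10: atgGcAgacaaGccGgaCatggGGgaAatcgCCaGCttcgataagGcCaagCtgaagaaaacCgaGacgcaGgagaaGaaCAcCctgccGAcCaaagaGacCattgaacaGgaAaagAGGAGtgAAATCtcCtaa
Both are 135 bases long and differ at 40 of them, an identity of 70.4%. The coding sequences of Pfn1 and Pfn2 were 62.0% identical in a global alignment, those of Cfl1 and Cfl2 71.9%, those of Cfl1 and Dstn 69.2%, and those of Cfl2 and Dstn 67.6%. Tmsb4x lies on chromosome X, and Tmsb10 and Capg both lie on chromosome 6. In the same transcripts, 21.5% of the 100-base stretches of Tmsb10 also occur in other genes (Gm3788 and Gm9844, neither of them among the symbols of the count files), against 12.4% for Cfl1, 1.12% for Cap1 and 0% for the other 6. The shared stretches of Cfl1 and Cap1 include Snx32 and Ppt1, and the RefSeq annotation of GRCm38.p6 also places Eno3 over Pfn1 and Gm33804 over Dstn. Values of Tmsb10, Cfl1, Cap1, Pfn1 and Dstn are uncertain by the reads they share with those genes. For the overlaps of Pfn1, Dstn and Cap1 (with Ppt1) this also depends on the strand setting, which is not given for the counting.

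Totals of the input libraries ran from 430798 to 15385625 counts, those of the C10 single cells used from 83188 to 5911755 and those of the SVEC single cells from 5122 to 2831907. Replicate 1 of the 1-cell libraries stood apart: it held 430798 counts over 538 genes, 64.6% of its counts were mitochondrial, and 95.1% of its reads were not aligned. No member had a count in it. The labelled cell types could not be read from their markers. All 4 surfactant genes on the list and Nkx2-1 were at 0 in the C10 single cells, where 7 of 16 alveolar markers were at 0 and 2 (Cdh1 and Etv5) were found in at least 50% of libraries. In the SVEC single cells 10 of 18 endothelial markers were at 0, Kdr, Tie1, Vwf and Cldn5 among them, and none was found in 50% of libraries. Summed over the list, the endothelial markers reached 0 to 138.4 CPM in SVEC cells (median 3.55) and 0 to 48.3 CPM in C10 cells (median 2.25). In the C10 cells 1 of them, Plvap, was found in at least 50% of libraries. Col1a1, Col3a1 and Acta2, from the list of fibroblast and mural genes, were found in 50% or more of both lines' libraries, with sums over that list of 532 to 7378 CPM in C10 and 0 to 7203 CPM in SVEC. Of the 7 leukocyte genes listed, Ptprc, Csf1r and Tyrobp were at 0 in both lines, and Cd68, Lyz2 and Cd74 had counts in both. None of the 7 was found in 50% of either line's libraries. Sums over the leukocyte list ran from 0 to 165 CPM in C10 and from 0 to 550 CPM in SVEC, with medians of 0. The part of these markers in the results was not tested.

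Together the 9 genes took 1.53% ± 0.210 (SD, n = 6) of all counts in libraries of 10 cells, 1.45% ± 0.249 (SD, n = 6) in libraries of 3 cells and 0.992% ± 0.579 (SD, n = 8) in libraries of 1 cell. They took 1.40% ± 0.432 (SD, n = 46) in C10 single cells and 0.531% ± 0.232 (SD, n = 48) in SVEC single cells. The share in 1-cell libraries ran from 0% in replicate 1 to 2.03% in replicate 2, which covers the whole range of the 3-cell libraries (1.05% to 1.74%) and of the 10-cell libraries (1.22% to 1.79%). When the 5 groups were ordered by their mean CPM for each gene, 2 of the 36 steps between neighbours were larger than the larger SD of the pair. These were the step of Pfn1 from C10 single cells to SVEC single cells and the step of Cfl2 from 10 cells to 1 cell. Groups that are not neighbours in the order, such as C10 and SVEC single cells for Tmsb4x, were not compared by this rule.

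**Figure D1:**
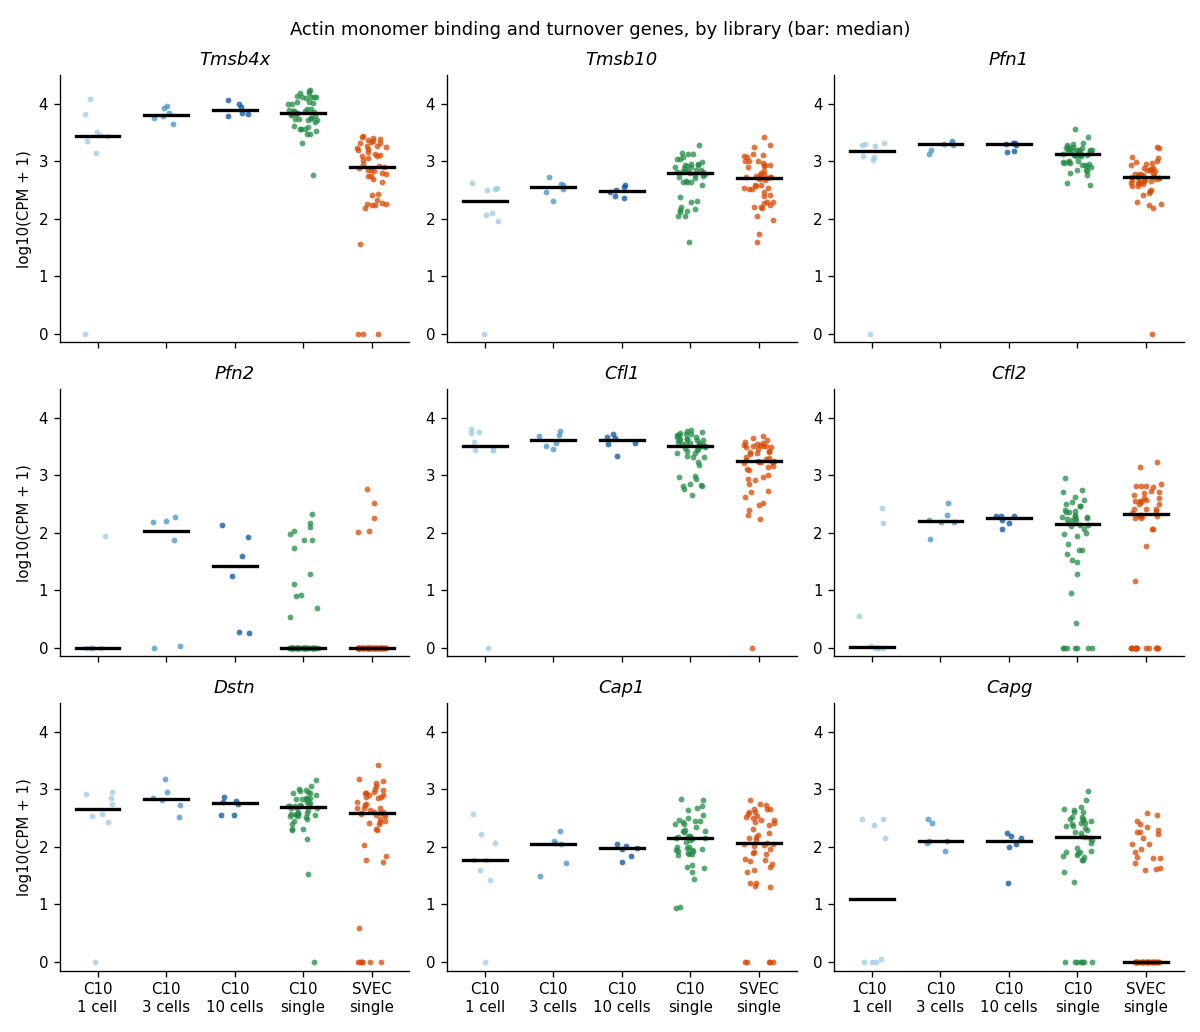
Levels of the 9 genes in the 114 libraries used, as log10(CPM + 1); each point is 1 library, the horizontal bar is the group median, and the 5 groups are the 1-cell, 3-cell and 10-cell C10 libraries and the C10 and SVEC single cells. Tmsb4x is the member whose C10 and SVEC single cells hardly overlap, and Pfn2, Cfl2 and Capg have many libraries at 0.

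The input series asked what a library retains when fewer cells go into it. Tmsb4x varied more than Pfn1 or Cfl1 between libraries of 1 cell. It stood at 11900 CPM in replicate 2, 2715 in replicate 5, 2793 in replicate 6, 6610 in replicate 9, 1391 in replicate 10, 3236 in replicate 13 and 2201 in replicate 14, and at 0 in replicate 1. Libraries of 3 cells held 4363 to 9151 CPM (mean 6712 ± 1783, SD, n = 6) and libraries of 10 cells 6030 to 11386 CPM (mean 8234 ± 2129, SD, n = 6). Of the 1-cell libraries only replicates 2 and 9 reached the levels of the pooled ones, and the highest value of the series was itself a 1-cell library. A CPM is a share of a library's counts, so fewer cells that express a gene and less of its RNA per cell cannot be told apart in libraries of 3 and 10 cells. Its relative Tmsb10 had 90.5 to 415 CPM in the 7 libraries of 1 cell that held it, 205 to 531 CPM with 3 cells and 232 to 379 CPM with 10 cells. The 3 ranges overlapped throughout.

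The profilins behaved differently from each other. Pfn1, the widespread profilin, had 1039 to 2087 CPM in the 7 libraries of 1 cell other than replicate 1, 1324 to 2246 CPM with 3 cells and 1414 to 2093 CPM with 10 cells. Pfn2, best known from neurons, was counted in 1 of 8 libraries of 1 cell (replicate 10, with 86.6 CPM). It was counted in 5 of 6 libraries of 3 cells, at 186, 0.0954, 151, 74.1 and 157 CPM, and was at 0 in replicate 5. All 6 libraries of 10 cells held it, at 16.8, 0.869, 39.1, 136, 0.812 and 82.9 CPM. When each library was thinned to 100000 counts, Pfn2 was found in 1 of 8, 4 of 6 and 3 of 6 libraries. Libraries of the same input thus differed by more than an order of magnitude with 3 and with 10 cells.

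Among the filament-severing genes, Cfl1, the non-muscle cofilin, had 2700 to 6277 CPM in the same 7 libraries of 1 cell, 2829 to 5830 CPM with 3 cells and 2130 to 5282 CPM with 10 cells. Cfl2, the cofilin of muscle, had 267 CPM in replicate 2 and 149 CPM in replicate 10 of the 1-cell libraries. It had 2.63 CPM in replicate 9, 0.0735 CPM in replicate 13 and no count in the other 4. It was counted in every library of 3 cells (75.9 to 333 CPM) and of 10 cells (114 to 198 CPM). The 2 higher 1-cell libraries lay within the range of the 3-cell ones and the other 6 far below it. Dstn had 271 to 906 CPM in the 7 libraries of 1 cell, 329 to 1535 CPM with 3 cells and 359 to 726 CPM with 10 cells.

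Cap1 had 25.1 to 368 CPM in 7 of 8 libraries of 1 cell, 29.6 to 187 CPM with 3 cells and 54.3 to 109 CPM with 10 cells. Its highest value was in replicate 14 of the 1-cell libraries, where the next highest was 163 CPM. In replicate 14, 25.6% of counts were mitochondrial, against 6.17% to 10.5% in the other 1-cell libraries apart from replicate 1. Capg was counted in 5 of 8 libraries of 1 cell, at 240, 0.127, 309, 140 and 303 CPM in replicates 2, 5, 6, 9 and 10. Libraries of 3 cells held 82.9 to 298 CPM of Capg and libraries of 10 cells 22.4 to 170 CPM. Of the 1-cell libraries, 4 thus lay within or above the range of the pooled ones and the other 4 near or at 0.

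No member passed the test in any of the 3 comparisons of the input series. By edgeR's quasi-likelihood test with Benjamini-Hochberg adjustment, 0 of 9 members were called for 10 cells against 1 cell, where 10.7% of the 13645 genes tested were called. For 3 cells against 1 cell 0 of 9 were called against 6.35% of all genes, and for 10 against 3 cells 0 of 9 against 0.0%. At an unadjusted p under 0.05 edgeR called no member in any comparison. DESeq2 called no member, with 1 unadjusted for 10 cells against 1 cell, and limma on log2(CPM + 1) called Cfl2 in both comparisons with 1 cell. Its limma difference was 5.22 for 10 cells (log2, adjusted p = 0.0137) and 5.21 for 3 cells (log2, adjusted p = 0.0387). Of the 13645 genes tested, limma called 1418 for 10 cells and 121 for 3 cells, each against 1 cell, all of them higher. DESeq2 called 1068 and 1171 in these comparisons. The limma median of all genes for 10 cells against 1 cell was 1.45. In the whole table, edgeR called 0 genes for 10 against 3 cells, with 1346 unadjusted, against 233 for DESeq2 and 35 for limma. The largest fitted edgeR change from 1 cell to 10 cells was that of Pfn2, a log2 fold change of 2.12 with an SE of 2.01 (adjusted p = 0.823, edgeR). Cfl2 followed with 1.46 and an SE of 1.51 (adjusted p = 0.867, edgeR) and Tmsb4x with 0.73 and an SE of 0.76 (adjusted p = 0.871, edgeR). Pfn1 was at 0.0054 with an SE of 0.738 (adjusted p = 1, edgeR). The median of the 13645 genes was 0.36 on the same scale, and Pfn1, Tmsb10, Cfl1, Dstn, Cap1 and Capg lay below it. The labels name no separate cultures, so these p-values measure only the spread between libraries, which may be technical.

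One library, replicate 10 of the 1-cell group, decided 1 of these results. It held 11764 detected genes, a number within the range of the 10-cell libraries (11477 to 13990). The other 1-cell libraries apart from replicate 1 held 5998 to 9368. The part of this in the result was not tested. Without replicate 10 of the 1-cell group, Pfn2 was at 0 in all 7 remaining libraries and was called by edgeR. Its adjusted p was 0.0148 for 10 cells and 0.0147 for 3 cells, each against 1 cell (edgeR). In that fit 2769 and 2035 genes were called in all. Without replicate 1 no member was called, and the counts over all genes were 336 and 32.

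**Figure D2:**
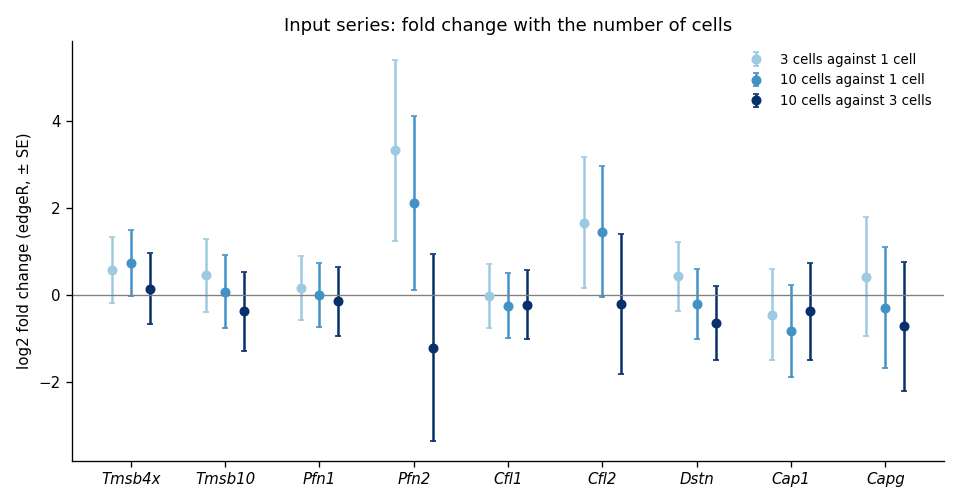
Log2 fold changes of the 9 genes between libraries of 1, 3 and 10 C10 cells from edgeR, with standard errors as bars. The bars cross 0 except those of Pfn2 in both comparisons with 1 cell and of Cfl2 for 3 cells against 1 cell.

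Libraries of the same input resembled each other more for these genes as more cells were pooled, as they did for most genes. The coefficient of variation, SD over mean, was lower in 10-cell than in 1-cell libraries for 9 of 9 members and for 93.3% of 12661 genes. Without replicate 1 of the 1-cell group it was lower for 9 of 9 members and 90.8% of genes. Over those 7 libraries it was 0.838 for Tmsb4x, 0.534 for Tmsb10 and 1.02 for Cap1, against 0.259, 0.188 and 0.244 with 10 cells. From 3 to 10 cells it was lower for 7 of 9 members, all but Pfn2 and Cfl1, and for 76.8% of 13127 genes. Pfn1 had the steadiest level of the members: a coefficient of variation of 0.186 with 3 cells and 0.160 with 10 cells. Of the genes counted in at least 90% of libraries, 2.27% of 5204 and 2.78% of 8180 were steadier than Pfn1. In the C10 single cells Pfn1 was at 0.448, and 15.4% of 1821 such genes were steadier. In SVEC single cells it was at 0.584, and 18.5% of 448 were steadier.

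The single-cell set compared the 2 lines. Each library is 1 cell and no culture is named, so each line counts as 1 sample, no test was made, and a ratio of mean CPM past 2-fold served as a rule of size. Intervals on pooled counts cover counting error of reads only. They treat reads as independent, although PCR copies count as separate reads, so they are too narrow even for that. Of the 9 members, 3 were past 2-fold and all 3 were higher in C10: Tmsb4x, Capg and Pfn1. None was past it in SVEC. Over all 9303 genes with a count in 25% or more of either line's libraries, 38.2% were past 2-fold, 19.6% higher in C10 and 18.6% higher in SVEC. The count of members past 2-fold in either direction was therefore close to that of genes at large. The median log2 ratio was 0.03 over the 9 members and 0.02 over all genes.

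Thymosins differed most from each other. Tmsb4x had a lowest, median and highest level of 571, 6958 and 16940 CPM in C10 cells and of 0, 803 and 2740 CPM in SVEC cells. Of 46 C10 cells, 44 lay above the highest SVEC cell, and no SVEC cell reached the C10 median. The 2 exceptions were replicate 24, with 571 CPM, 30.9% mitochondrial counts and the lowest sum of the 9 members among C10 cells, and replicate 31, with 2044 CPM. Tmsb4x had no count in 3 SVEC cells, of which replicate 20 held 6591 counts, replicate 24 held 95959 and replicate 32 held 130944. The mean was 7867 ± 4102 CPM (SD, n = 46) in C10 and 1051 ± 822 CPM (SD, n = 48) in SVEC, a 7.49-fold ratio (log2 2.90). Pooled over cells the levels were 7101 CPM (exact Poisson 95% interval 7085 to 7118) and 862 CPM (851 to 872). Tmsb10, in contrast, was found in every cell of both lines, at 38.5 to 1911 CPM (median 631) in C10 and 38.9 to 2609 CPM (median 508) in SVEC. Its means were 637 ± 400 and 622 ± 522 CPM, a log2 ratio of 0.03, and the lines overlapped over nearly the whole range.

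Pfn1 was higher in C10 by 2.22-fold (log2 1.15), with means of 1310 ± 587 CPM (SD, n = 46) and 591 ± 345 CPM (SD, n = 48). Its median was 1307 CPM in C10 (390 to 3646) and 533 CPM in SVEC (0 to 1751). Of 46 C10 cells, 44 were above the SVEC median and 5 above the highest SVEC cell, so the lines were shifted but overlapped. Pfn2 was found in 14 of 46 C10 cells and 5 of 48 SVEC cells, and in 13 of 45 and 4 of 42 after thinning to 100000 counts. Its mean was 20.2 CPM in C10 and 27.2 CPM in SVEC. The SVEC value rested on few cells, the highest of which had 586 CPM in a library of 5122 counts. Over libraries of at least 100000 counts the means were 20.6 and 17.1 CPM, with the opposite order.

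Cfl1 was 1.59-fold higher in C10 (log2 0.67), under the 2-fold rule, with means of 3118 ± 1608 CPM (SD, n = 46) and 1964 ± 1263 CPM (SD, n = 48). It ran from 446 to 6028 CPM in C10 (median 3263) and from 0 to 4877 CPM in SVEC (median 1752), and 35 of 46 C10 cells lay above the SVEC median. Cfl2 leaned the other way: its mean was 169 ± 176 CPM in C10 and 288 ± 341 CPM in SVEC, a log2 ratio of -0.77. It was counted in 39 of 46 C10 cells and 34 of 48 SVEC cells, so the higher SVEC mean went with fewer SVEC cells holding it. Dstn had means of 530 ± 292 and 519 ± 496 CPM, a log2 ratio of 0.03, and was missing from 1 C10 cell and 6 SVEC cells.

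Cap1 had nearly the same mean in both lines, 185 ± 158 CPM in C10 and 184 ± 174 CPM in SVEC (log2 ratio 0.0050). Capg was counted in 39 of 46 C10 cells and 21 of 48 SVEC cells, and in 37 of 45 and 21 of 42 after thinning. Its median was 149 CPM in C10 (0 to 949) and 0 in SVEC (0 to 390). The mean ratio was 3.04-fold (log2 1.60), from 197 ± 191 CPM (SD, n = 46) to 64.9 ± 101 CPM (SD, n = 48). Across SVEC cells Capg also followed the number of genes detected (Spearman rho 0.48, n = 48), and in C10 cells less closely (rho 0.28, n = 46).

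Another scaling moved the whole table. With TMM factors the median log2 ratio of all genes was 0.36 in place of 0.02, and 69.5% of the genes past 2-fold were higher in C10 in place of 51.4%. That share was 90.8% with medians over cells and 74.9% among genes counted in 90% or more of a line, so the even split of genes at large depends on the summary and the filter. With medians, 2945 of the 4192 genes past 2-fold had a median of 0 in 1 line, so no finite ratio. Under TMM Cfl1 passed 2-fold (log2 1.04), which made 4 members, and relative to the median of all genes it was at 0.69 under TMM and 0.65 under plain CPM. Tmsb4x, measured the same way, was at 2.93 and 2.89. The library titles carry numbers from 1 to 48 in each line, and what these stand for is not given in the sources used here. Within numbers 1 to 16, 17 to 32 and 33 to 48, a split made after the data were seen, Tmsb4x had log2 ratios of 2.82, 3.16 and 2.71 and Capg of 1.45, 1.99 and 1.46. Pfn1 had 1.36, 0.71 and 1.37, so it was under the 2-fold rule within the middle range. Cfl1 had 1.10, 0.45 and 0.74. The members with a ratio near 1 over all cells changed direction between the ranges. Cap1 had 0.83, 0.0037 and -0.47, Tmsb10 0.41, -0.13 and 0.08, and Dstn -0.29, 0.51 and -0.05.

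**Figure D3:**
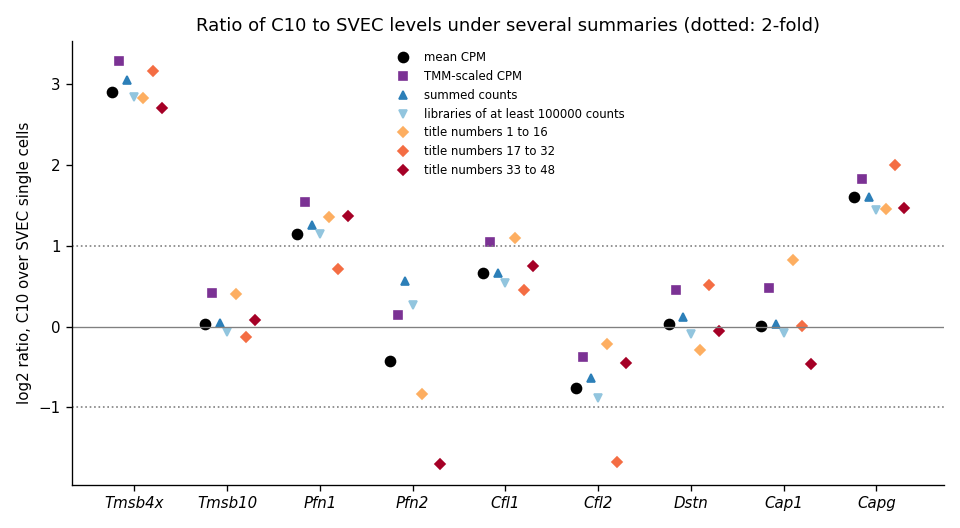
Log2 ratio of C10 over SVEC single cells for the 9 genes as means of CPM, after TMM scaling, from summed counts, over libraries of at least 100000 counts and within 3 ranges of title numbers; dotted lines mark 2-fold. Tmsb4x and Capg lie above the upper line in every summary shown. Tmsb10, Dstn, Cap1 and Pfn2 (which has no ratio in numbers 17 to 32, where SVEC had no count) change side of 0.

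Genes that the members act on or work with were taken from 7 lists of 63 names, of which 44 genes were counted in at least 25% of a line. Between the lines 7 of the 44 were past 2-fold higher in C10 and 8 higher in SVEC, with a median log2 ratio of 0.21. Of all genes 19.6% and 18.6% were past it in these directions, so the lists did not exceed genes at large, and their members are given as values. Both cytoplasmic actins were under 2-fold: Actb had 2510 ± 761 CPM in C10 and 1755 ± 847 CPM in SVEC (log2 0.52), and Actg1 2439 ± 929 and 1494 ± 991 CPM (log2 0.71). The smooth-muscle actin Acta2 was past it, with 1605 ± 1523 CPM in 45 of 46 C10 cells and 710 ± 920 CPM in 33 of 48 SVEC cells (log2 1.18). The other thymosins and profilins (6 genes) had no count in either line, so Tmsb4x, Tmsb10, Pfn1 and Pfn2 were the members of their families detected here.

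Of 10 cofilin regulators and cofactors, 3 were past 2-fold higher in C10 and 1 in SVEC. The kinase Limk2, which phosphorylates cofilin, had 59.3 ± 77.9 CPM in 43 of 46 C10 cells and 10.4 ± 29.5 CPM in 15 of 48 SVEC cells (log2 2.50). The others, Tesk1, Ssh1 and Tesk2, averaged at most 16.6 CPM in either line. Of 6 other monomer binders, 1 was higher in C10 and 3 in SVEC. They included Mtss1 (log2 1.01) and the actin-sensing coactivator Mrtfa (log2 -1.40), with 13.1 ± 23.6 CPM in C10 and 34.7 ± 87.2 CPM in SVEC. In the Arp2/3 complex, which nucleates branched filaments, 1 of 9 subunits was past 2-fold, Arpc1b with 114 ± 80.2 CPM in C10 and 47.7 ± 68.6 CPM in SVEC (log2 1.25). Of 9 formins and nucleation promoters, Wasl was higher in C10 (log2 1.55) and 3 were higher in SVEC, among them the formin Diaph3 (log2 -1.45). Of 7 capping and gelsolin-family genes 1, Svil, was past 2-fold (log2 -1.15, 12 of 48 SVEC cells). Tesk1, Ssh1, Tesk2 and Svil were named after their values were seen.

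In the input series 50 of the 63 listed genes were tested. By edgeR 3 were called higher for 10 cells against 1 cell, 2 for 3 cells against 1 cell and 0 for 10 against 3 cells, and none was called lower. Of all genes tested, 10.7%, 6.35% and 0.0% were called, so the listed genes were not called more often than genes at large. All were low: Tesk1, another cofilin kinase, had no count with 1 cell, 9.41 CPM with 3 cells (4 of 6 libraries, adjusted p = 0.0397, edgeR) and 5.65 CPM with 10 cells (3 of 6 libraries, adjusted p = 0.0275, edgeR). The formin Diaph1 had 0.0888 ± 0.128 CPM with 1 cell (4 of 8 libraries) and 16.3 ± 26.0 CPM with 10 cells (4 of 6 libraries, adjusted p = 0.0301, edgeR). The formin Daam1 had 0.139 ± 0.105 CPM with 1 cell (6 of 8 libraries) and 7.28 ± 14.8 CPM with 10 cells (6 of 6 libraries, adjusted p = 0.0262, edgeR). Flii, a gelsolin relative, had 0.0357 ± 0.0519 CPM with 1 cell (3 of 8 libraries) and 21.2 ± 37.0 CPM with 3 cells (2 of 6 libraries, adjusted p = 0.0414, edgeR). In each of these the SD of the higher group was larger than its mean. These 4 were named because they were called. No actin gene was called in any comparison.

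Correlations between members from cell to cell were mostly weak. Over the 36 pairs of members the median Spearman rho was 0.01 in C10 (n = 46 cells) and 0.02 in SVEC (n = 48 cells). The pair Tmsb10 and Cfl1 had a rho of 0.84 in C10 and 0.80 in SVEC and was the only pair at 0.3 or more in both. Some pairs reached that size in 1 line: in C10 Pfn1 and Cfl2 (0.45) and, with the opposite sign, Tmsb4x and Capg (-0.40), and in SVEC Cfl1 and Cap1 (0.49), Tmsb4x and Dstn (0.40), Tmsb10 and Cap1 (0.39), Cfl2 and Cap1 (0.32), Cfl1 and Cfl2 (0.31) and Tmsb4x and Cap1 (-0.32). Each pair of values shares a library and its total. Tmsb10 followed the total count with a rho of 0.14 in C10 and 0.25 in SVEC, and Cfl1 with 0.30 and 0.32.

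The C10 cells fell into 2 sets on this pair. In 11 cells Tmsb10 was at 38.5 to 233 CPM and Cfl1 at 446 to 1683 CPM, and in the other 35 Tmsb10 was at 388 to 1911 CPM and Cfl1 at 2105 to 6028 CPM. The split was placed in a gap of Tmsb10, and no cell lay between the sets in Cfl1 either. Within the sets, which were separated on Tmsb10 after the data were seen and so span less of its range, the rho was 0.50 (n = 11) and 0.66 (n = 35). Of the 11 cells, 10 had title numbers from 1 to 16, 1 a number from 17 to 32 and none a higher number. A split of the SVEC cells on Tmsb10 also gave 11 lower and 37 higher cells, and 8 of those 11 had numbers from 1 to 16. Its gap was narrower, 0.094 on the log10(CPM + 1) scale against 0.221 in C10. The Cfl1 ranges of the SVEC sets overlapped (0 to 1739 and 243 to 4877 CPM). By range of title numbers (1 to 16, 17 to 32, 33 to 48) the median of Cfl1 was 951, 3688 and 3806 CPM in C10 and 761, 3069 and 2376 CPM in SVEC. That of Tmsb10 was 199, 656 and 696 CPM in C10 and 219, 690 and 609 CPM in SVEC. Tmsb4x had medians of 7358, 6350 and 7034 CPM in C10 and 1124, 648 and 855 CPM in SVEC over the same ranges, without the low first value. The rho of Tmsb10 with Cfl1 within the ranges was 0.91 (n = 16), 0.77 (n = 16) and 0.29 (n = 14) in C10 and 0.74, 0.70 and 0.72 (n = 16 each) in SVEC. Median mitochondrial shares of these ranges were 7.17%, 7.47% and 6.51% in C10 and 4.29%, 4.52% and 3.94% in SVEC. Median numbers of genes were 6083, 5767 and 6748 in C10 and 5286, 3310 and 4507 in SVEC. Median total counts were 1518080, 1881700 and 2078240 in C10 and 310125, 443904 and 655517 in SVEC. In both lines they were lowest in numbers 1 to 16. The parts of depth and of whatever the numbers stand for were not tested.

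**Figure D4:**
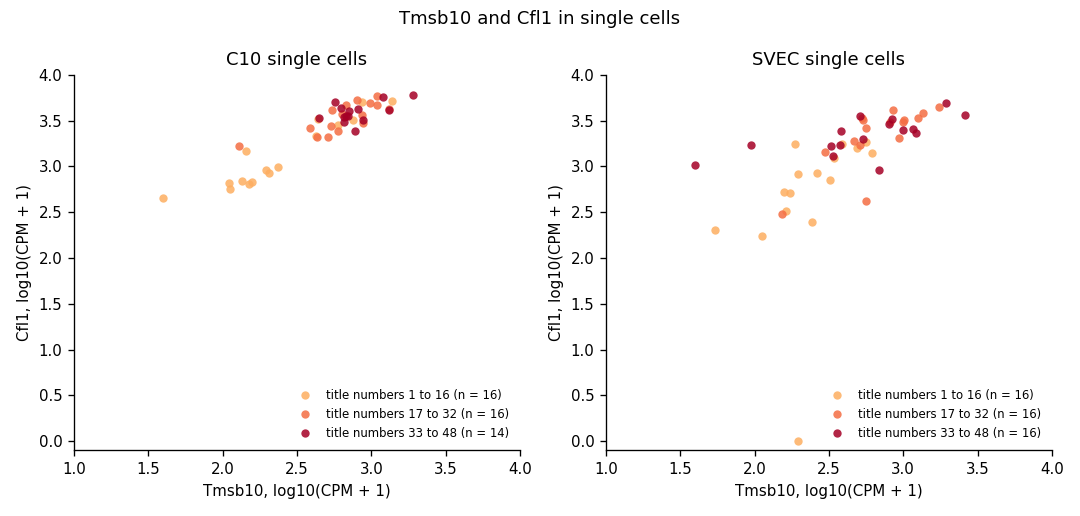
Tmsb10 (x) against Cfl1 (y) in C10 and SVEC single cells, each as log10(CPM + 1), 1 point per cell, coloured by range of title number. In C10 a set of 11 cells, 10 of them with numbers from 1 to 16, lies apart at low values of both genes, and 1 SVEC cell has no Cfl1 count.

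The genes whose levels were most like a member's were sought among 437 genes with counts in 90% or more of each line's libraries, by the lower of the rhos in C10 (n = 46) and SVEC (n = 48). The C10 value is given first. For Tmsb4x they were Lgals1, a galectin (0.52 and 0.55), and Elob, an elongin subunit (0.52 and 0.45). For Pfn1 they were Cox5a, a subunit of cytochrome c oxidase (0.51 and 0.51), and the ribosomal protein gene Rpl21 (0.46 and 0.52). For Tmsb10 they were Ppp1ca, a catalytic subunit of protein phosphatase 1 (0.53 and 0.54), and Cyb5r3, a reductase (0.57 and 0.51). For Cfl1 they were the 14-3-3 gene Ywhae (0.73 and 0.66) and again Ppp1ca (0.59 and 0.62). These rhos were taken over all title numbers, across which the medians of Tmsb10 and Cfl1 shifted in both lines. The part of that shift in them was not tested.

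Likeness went with the coding length of the other gene, in opposite directions for the members. Over the 390 of 436 genes with a coding length in the GENCODE transcripts, genes more like Tmsb4x were shorter, with a rho of likeness with length of -0.51 in C10 and -0.42 in SVEC. Pfn1 had -0.44 and -0.40. Genes more like Tmsb10 were longer (0.44 and 0.28), as were those more like Cfl1 (0.48 and 0.29). Tmsb4x and Tmsb10 both have a coding length of 135 bases and had opposite signs. The coding lengths of Pfn1 and Cfl1 are 423 and 501 bases. The part of a member's own length was not tested. With the G and C content of the coding sequence the values were 0.13 and 0.05 for Tmsb4x, 0.07 and 0.10 for Pfn1, 0.09 and 0.12 for Tmsb10 and 0.05 and 0.12 for Cfl1. These are descriptions across genes of the same cells, and genes are not independent replicates. They too rest on rhos over all title numbers, and the part of the shift of Tmsb10 and Cfl1 with those numbers was not tested.

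**Figure D5:**
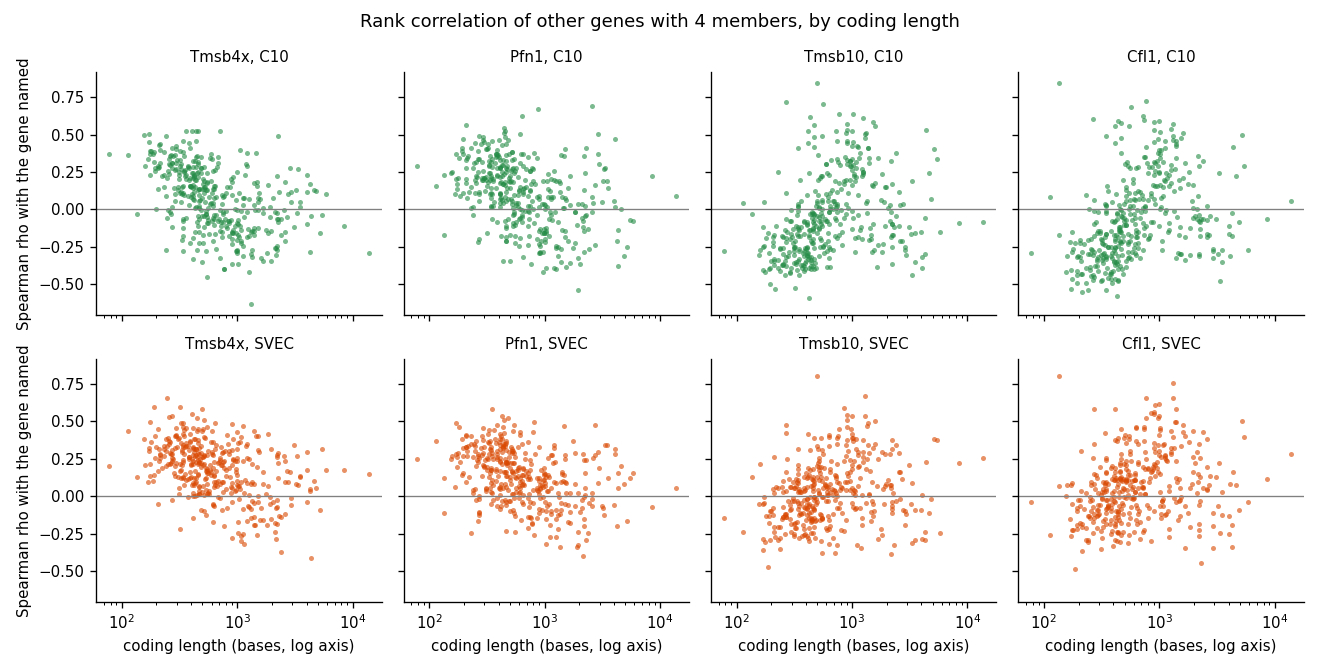
Spearman rho of each of 390 genes with Tmsb4x, Pfn1, Tmsb10 and Cfl1 (y) against the coding length of that gene (x, log axis), in C10 cells (upper row) and SVEC cells (lower row). Shorter genes lie higher for Tmsb4x and Pfn1 and lower for Tmsb10 and Cfl1.

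The 1-cell libraries of the input series and the C10 single cells both hold 1 C10 cell and were listed as separate series. Without replicate 1, the former had means of 4407 ± 3692 CPM of Tmsb4x, 248 ± 132 of Tmsb10, 1615 ± 435 of Pfn1 and 4171 ± 1540 of Cfl1 (SD, n = 7). The latter had 7867 ± 4102, 637 ± 400, 1310 ± 587 and 3118 ± 1608 CPM (SD, n = 46). The 7 libraries of 1 cell held 90.5 to 415 CPM of Tmsb10 with 2700 to 6277 CPM of Cfl1. No test was made between the series. Their depths differed: those 7 libraries held 7838544 to 15385625 counts.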

How the data were processed

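The data were 116 RNA libraries of 2 mouse cell lines made into full-length cDNA (SMART-Seq v4 Plus) and read from 1 end over 150 bases, per the labels' protocols. The authors deposited whole-number read counts per gene, 1 file per library. The submitters' processing notes name FastQC, STAR and HTSeq without versions, and the genome build, annotation and strand setting are not given in the sources used here. Coordinates were therefore left out. The 5 closing counters of each file stayed out of totals; the median share of reads not aligned was 18.8% to 36.1% over the groups, and the counter for reads with several alignments was 0 in every library. Nothing in the labels describes molecular identifiers, and PCR copies therefore count as separate reads.

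Counts were divided by library totals to give CPM, and libraries under 1000 counts (2 C10 single cells) were left out. The input series was fitted with edgeR 4.0.16 in R 4.3.3 as 1 model of 3 groups with TMM factors, over genes with a count in 50% or more of any group's libraries, with Benjamini-Hochberg adjusted p-values under 0.05 as calls. Its code was tested on simulated data. Alternatives were library totals alone, DESeq2 1.42.0, limma 3.58.1 on log2(CPM + 1), no filter, single libraries left out and a replicate block. C10 and SVEC single cells were compared as ratios with no test, over genes counted in at least 25% of a line, and under other scalings, filters and depths. Detection was also taken after thinning to 100000 counts.

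Sequences, coding lengths and shared stretches came from GENCODE mouse transcripts of GRCm38, and gene overlaps from RefSeq. Genes were named by rule: the 9 members, actin genes, up to 3 genes per list past 2-fold and counted in at least 50% of the higher line, and the 2 genes most like each member counted in at least 90% of both lines. Members and lists were chosen with earlier results of these data known.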

Additional observations from a re-analysis of the deposited data

Results flagged for a closer look

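In groups of 4 to 10 libraries, a single library lay far from the rest in 2 of the 27 groups examined (9 genes in 3 input groups), where chance alone would mark about 5%. Pfn2 stood at 86.6 CPM in replicate 10 of the 1-cell libraries, and the other 7 were at 0. Cap1 stood at 368 CPM in replicate 14 of the 1-cell libraries, and the other 7 ran from 0 to 163 CPM, a gap of 0.556 of the whole range. Mitochondrial counts made up 25.6% of replicate 14.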

How the results depend on the processing

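The counts of called genes rest on few libraries and on the fit. For 10 cells against 1 cell edgeR called 1456 genes, 48 without the filter and 0 with the replicate block, and leaving out 1-cell libraries in turn gave 336 (without replicate 1) to 2769 (without replicate 10). For 3 cells against 1 cell it called 866, 65 without the filter, 121 with limma and 0 with the block, and 32 (without replicate 1 or 9) to 2035 (without replicate 10). For 10 against 3 cells it called 0, DESeq2 233 and limma 35. The block covered the 6 shared numbers, and same-numbered libraries did not deviate together (correlations from -0.0344 to 0.0922), so the numbers were not taken as pairs; it called 0 members. The fitted direction of members, none of them called by edgeR in the main fit, changed in 43 of 351 refits. For 10 cells against 1 cell DESeq2 gave -0.25 for Tmsb4x, -0.91 for Tmsb10 and -1.04 for Pfn1; limma gave 1.45 for Cfl1, 1.14 for Dstn, 0.84 for Cap1 and 2.66 for Capg; the block gave 0.35 for Cfl1, 0.31 for Dstn and 1.09 for Cap1; and library totals alone gave 0.12 for Cfl1 and 0.12 for Dstn. Leaving out a 1-cell library gave Tmsb10 -0.12 to 0.43, Pfn1 -0.19 to 0.37, Cfl1 -0.44 to 0.099, Cap1 -1.02 to 0.094 and Capg -0.48 to 0.13. For 3 cells against 1 cell DESeq2 gave -0.0010 for Tmsb4x, -0.13 for Tmsb10, -0.51 for Pfn1 and -0.26 for Dstn; limma gave 1.55 for Cfl1 and 0.91 for Cap1; the block gave 0.61 for Cfl1 and 1.08 for Cap1; and Cfl1 was at 0.21 with library totals alone and 0.13 without the filter. Leaving out a 1-cell library gave Pfn1 -0.038 to 0.52, Cfl1 -0.22 to 0.33 and Cap1 -0.64 to 0.47. For 10 against 3 cells Tmsb4x was at -0.25 with DESeq2, Cfl2 at 0.017 with limma and 0.068 with the block, and Cap1 at 0.0045 with the block. DESeq2 and limma also shifted the median of all genes, to -0.13 and 1.45 for 10 cells against 1 cell. The cause of these changes was not tested.

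Between the lines, the filter sets how many genes are counted as past 2-fold: 3551 of 9303, 363 of 1832 with detection in 90% of a line and 10786 of 18001 with no filter. Medians gave 4192 of 5888, 90.8% of them higher in C10 in place of 51.4%. Of these 4192 genes, 2945 had a median of 0 in 1 line. The number of members past it was 3 or 4 in all 5 other settings tried. Pfn2 was found in 50% of the 10-cell libraries after thinning, in place of 100%, and Pfn1, Cfl1 and Cap1 in 100% of the SVEC libraries deep enough to thin. The rho of Tmsb10 with Cfl1 in C10 was 0.84, 0.91 within title numbers 1 to 16, 0.29 within 33 to 48, and 0.50 and 0.66 in the lower and higher set of cells. SVEC libraries were the shallowest, with a median of 434945 counts and 6 under 100000. After thinning, Pfn2 was found in 28.9% of C10 and 9.52% of SVEC cells, Cfl2 in 84.4% and 76.2%, and Capg in 82.2% and 50%.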
